A study of Caenorhabditis elegans with 6 samples.

Results

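The glutathione S-transferase (GST) genes of *Caenorhabditis elegans* were taken as every gene of the count table whose WormBase symbol in the WBcel235 annotation is *gst-* or *gsto-* followed by a number. This gave 47 of the 46661 genes in the table, namely 44 *gst* genes and 3 *gsto* genes. RNA came from 3 biological replicates of *folr-1(syb4116)* and 3 of N2, the wild type. Animals of both strains were synchronized by bleaching, grown from L1 at 20 °C on HT115 bacteria with an empty RNAi vector, and frozen as whole animals at the L4 larval stage. The *syb4116* allele is a single CRISPR/Cas9 edit that puts a premature stop codon near the start of the folate receptor gene *folr-1*, and a second allele was not sequenced here. All tissues were mixed in each sample, so fewer cells of a type and less RNA per cell cannot be told apart.

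GSTs join the thiol of glutathione to reactive electrophiles such as lipid peroxidation products and xenobiotics, which makes these compounds more soluble and marks them for export. In *C. elegans* the transcription factor SKN-1, the counterpart of mammalian Nrf2, switches on several of these genes in the intestine under oxidative stress, and *gst-4* is the usual reporter of that response. The omega class (*gsto*) carries a catalytic cysteine and can reduce oxidized thiols, and the zeta class isomerizes an intermediate of tyrosine breakdown.

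Total counts were between 21646678 and 25946226 per library, and 15432 genes had enough counts to be tested with edgeR. The mutated gene *folr-1* itself had 14, 11 and 7 counts in *folr-1(syb4116)* and 32, 37 and 59 counts in N2, with a log2 fold change of -2.02 (adjusted p = 4.99e-04). Every library held counts of intestine, epidermis, muscle, neuron and germline markers. The 8 male markers summed to between 2.90 and 4.05 CPM in *folr-1(syb4116)* and between 6.74 and 8.82 CPM in N2. CPM are counts scaled to library size with TMM factors. Of the 6 tested, 3 were lower in the mutant, beside 3.32% of all tested genes. These were *lov-1*, *pkd-2* and *mab-3*. *lov-1* had 2, 2 and 0 counts in the mutant and 13, 13 and 21 counts in N2. *pkd-2* and *mab-3* had log2 fold changes of -2.62 and -1.01. *mab-3* held the largest part of the sums, with means of 2.01 CPM in *folr-1(syb4116)* and 4.05 CPM in N2. *cil-7*, *cwp-4* and *cwp-5* did not pass the test (log2 fold change -1.22, 0.12 and -0.03). *cwp-1* was not tested, with 0 counts in all 3 mutant libraries and 7, 4 and 7 counts in N2. *cwp-2* was not tested either, with 1, 1 and 1 counts in the mutant and 10, 4 and 6 counts in N2. Whether this bears on the GST genes was not tested.

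Firstly, the levels of the GST genes were compared with each other as FPKM, which divides the count by gene length. *gst-1*, a transferase studied for its protection of dopamine neurons against manganese, had the highest level, with a mean of 240 FPKM over the 6 libraries and a range from 226 to 258 FPKM. It did not overlap with the next gene, *gst-27*, at 111 to 135 FPKM. *gst-7*, which belongs to the SKN-1-responsive transferases, followed at 106 to 124 FPKM and overlapped with *gst-27*. The next places were taken by *gst-13* (mean 95.9 FPKM), *gst-10* (92.4 FPKM) and *gst-26* (90.6 FPKM), whose libraries overlapped so that their order was not resolved. Among the other genes of known role, the SKN-1 reporter gene *gst-4* had a mean of 29.7 FPKM, the zeta class gene *gst-42* had 36.5 FPKM and *gsto-1* had 15.1 FPKM.

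GST levels covered a wide range. There were 18 genes with a mean over 10 FPKM, 13 between 1 and 10 FPKM and 16 below 1 FPKM. The 5 genes with the highest FPKM held 54.4% of the summed CPM of the family. Between *gst-1* and *gst-44*, the lowest tested gene at 0.501 FPKM, the difference was 478-fold.

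**Figure D1:**
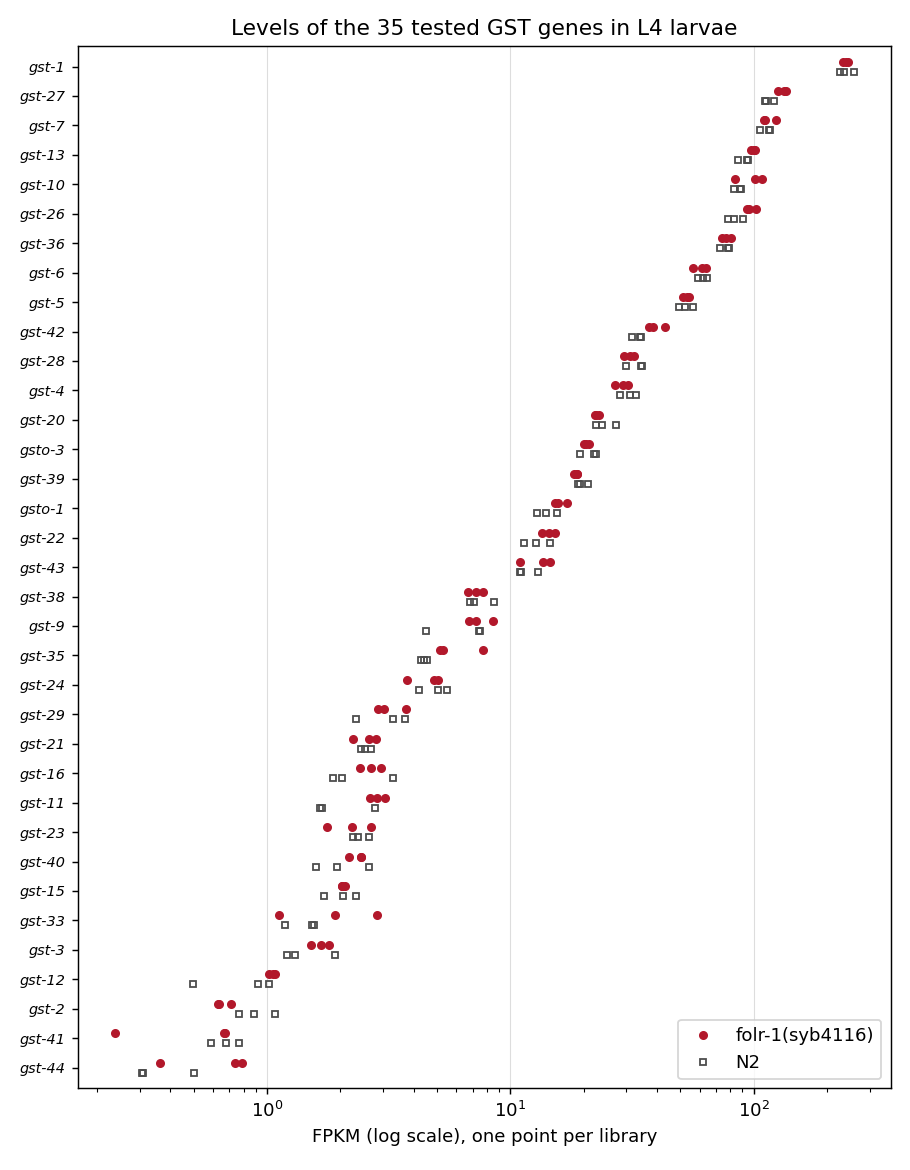
FPKM of the 35 tested GST genes on a log axis, one point per library, with filled circles for folr-1(syb4116) and open squares for N2, ordered by the mean of all 6 libraries. *gst-1* stands above the other genes at 226 to 258 FPKM, and for most genes the points of the strains lie on top of each other.

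Next, it was asked whether GST transcripts differed between the strains. Few did. Of the 47 GST genes, 35 passed the filter on low counts, and 3 of these (8.57%) were higher in *folr-1(syb4116)*, namely *gst-27*, *gst-26* and *gst-42* (edgeR, adjusted p below 0.05). Among all tested genes 3.64% were higher and 3.32% were lower, or 6.95% in either direction. No GST gene was called lower by edgeR, DESeq2 or limma-voom, and 0 GST genes had a negative fold change with an unadjusted p below 0.05. At that unadjusted limit 7 of the 35 tested GST genes passed, all of them above 0, against 20.2% of all tested genes in either direction. Without regard to direction, the share of GST genes that passed was thus close to that of all genes. The share of all genes that passed this limit above 0 was not counted, so the direction was not compared.

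The fold changes of the family were small. The fitted log2 fold change was above 0 for 23 tested GST genes (65.7%) and below 0 for 12, while 50.7% of all tested genes were above 0. The median was 0.04 for the GST genes and 0.00 for all genes. The GST median was 0.12 without *folr-1(syb4116)* replicate 1, 0.02 without *folr-1(syb4116)* replicate 3 and 0.02 with a correction for gene length. For 29 of the 35 tested genes the 95% interval lay within 2-fold in either direction. The remaining 6 genes, *gst-2*, *gst-11*, *gst-12*, *gst-33*, *gst-41* and *gst-44*, had intervals that reached 2-fold, and each had a mean below 3 FPKM, so a change of that size was not excluded for them. The highest fitted value was that of *gst-44*, with 17, 17 and 7 counts in *folr-1(syb4116)* and 6, 10 and 7 counts in N2 (log2 fold change 0.78, 95% interval -0.14 to 1.69).

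**Figure D2:**
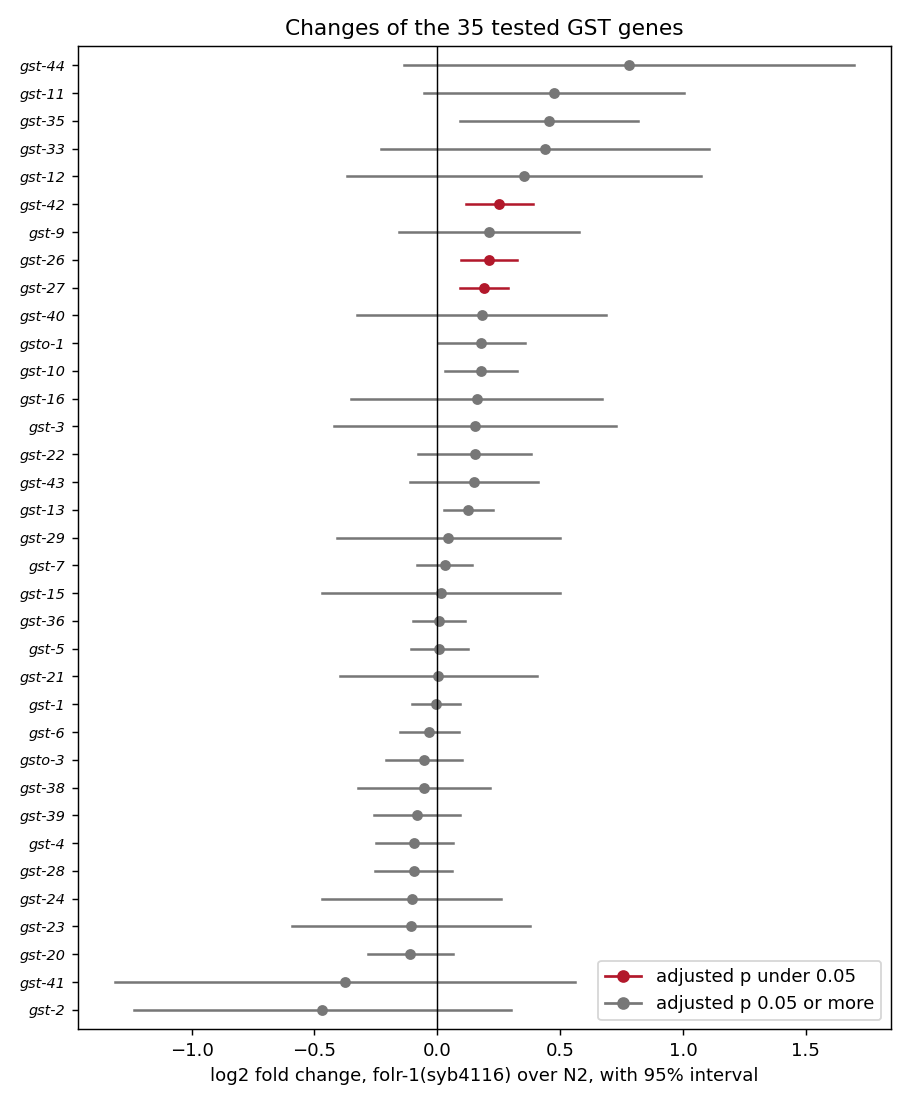
Log2 fold change of the 35 tested GST genes, folr-1(syb4116) over N2, with 95% intervals from edgeR. The 3 genes with an adjusted p below 0.05 (red) lie between 0.19 and 0.25, and the widest intervals belong to the genes of low level such as *gst-44* and *gst-41*.

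*gst-27* (Y53F4B.30, WBcel235 chromosome II, 15164890 to 15165731, minus strand) had 94.2, 100.7 and 99.2 CPM in *folr-1(syb4116)* and 84.0, 82.7 and 90.8 CPM in N2. These values came from 2410, 2431 and 2134 counts in the mutant and 1836, 1842 and 2297 counts in N2. The strains did not overlap in CPM, although N2 replicate 3 came close to *folr-1(syb4116)* replicate 1. In raw counts they did overlap. The mean was 98.1 ± 3.41 CPM in *folr-1(syb4116)* and 85.8 ± 4.35 CPM in N2 (SD, n = 3 each), and the log2 fold change was 0.19 (SE 0.046, 95% interval 0.09 to 0.29, edgeR adjusted p = 0.0169).

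*gst-26* (Y53F4B.29, chromosome II, 15163817 to 15164553, minus strand) is the next gene on the same strand. It had 69.9, 74.4 and 68.6 CPM in *folr-1(syb4116)* and 57.5, 60.4 and 66.1 CPM in N2. As for *gst-27*, N2 replicate 3 was the highest of the N2 libraries and lay just below the mutant ones. The log2 fold change was 0.21 (SE 0.054, 95% interval 0.10 to 0.32, edgeR adjusted p = 0.0250). Counts of *gst-27* were 1.35, 1.35 and 1.45 times those of *gst-26* in *folr-1(syb4116)* and 1.46, 1.37 and 1.37 times in N2, which overlapped. How reads shared between similar GST genes were counted is not given in the sources used here, so the split of reads between neighbouring copies is uncertain.

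The largest change among the 3 was that of *gst-42* (D1053.1, chromosome X, 11726264 to 11727936, minus strand), the zeta class enzyme that acts as maleylacetoacetate isomerase. It had 36.2, 41.98 and 37.7 CPM in *folr-1(syb4116)* and 30.6, 33.1 and 33.4 CPM in N2, without overlap. The mean was 38.6 ± 2.99 CPM in *folr-1(syb4116)* and 32.4 ± 1.56 CPM in N2 (SD, n = 3 each). This was a log2 fold change of 0.25 (SE 0.064, 95% interval 0.12 to 0.39, edgeR adjusted p = 0.0233), or 19.1% higher in the mutant. *gst-42* and *folr-1* lie on the same chromosome, 1805 kb apart.

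Each of the 3 calls depended on single libraries, while the direction stayed the same in all 17 alternative fits of each gene. *gst-27* lost its call without *folr-1(syb4116)* replicate 2 or 3 or N2 replicate 1 or 2, where the highest adjusted p was 0.0941. *gst-26* was not called without *folr-1(syb4116)* replicate 1 or 2 or N2 replicate 1 or 2, with adjusted p up to 0.116. For *gst-42* the libraries were *folr-1(syb4116)* replicates 2 and 3 and N2 replicates 1 and 2, and adjusted p reached 0.125. Marker lists of tissues and of the moult were also compared. Beside them, 3.64% of all tested genes were higher and 3.32% were lower. Of 10 tested intestine markers 2 were higher, *act-5* and *ifb-2*. Of the 10, 9 were above 0 and 1 was below, with a median log2 fold change of 0.10. The summed level of the intestine list was 3229 to 3381 CPM in *folr-1(syb4116)* and 3046 to 3213 CPM in N2, without overlap. Of 7 epidermis markers 3 were higher, *dpy-13*, *rol-6* and *sqt-3*. The epidermis list summed to 2517 to 2747 CPM in *folr-1(syb4116)* and 2057 to 2357 CPM in N2, also without overlap. *dpy-13* held the largest part, with means of 1498 CPM in *folr-1(syb4116)* and 1292 CPM in N2. The other epidermis markers were not called, with *bli-1* at 0.25, *dpy-7* at 0.04, *nhr-25* at -0.02 and *elt-1* at -0.16 (log2 fold change). The sums of the body wall muscle and sperm lists were lower in the mutant, without overlap. The 5 muscle markers summed to 8830 to 9705 CPM in *folr-1(syb4116)* and 10425 to 10629 CPM in N2, and 1 of them, *unc-54*, was lower. *unc-54* held the largest part, with means of 4598 CPM in *folr-1(syb4116)* and 5607 CPM in N2, while *pat-10* was above 0 (log2 fold change 0.04). The 6 sperm markers summed to 284 to 307 CPM in *folr-1(syb4116)* and 312 to 323 CPM in N2, all 6 were below 0 and 2 were lower. The 8 moult genes summed to 682 to 774 CPM in *folr-1(syb4116)* and 566 to 693 CPM in N2, which overlapped, with 2 higher and 1 lower. The neuron and germline lists had 0 called genes, and their sums overlapped. Neuron markers summed to 244 to 260 CPM in *folr-1(syb4116)* and 246 to 251 CPM in N2. Germline markers summed to 1795 to 1820 CPM in *folr-1(syb4116)* and 1820 to 1894 CPM in N2. None of the genes of these lists was at 0 in any library, and their part in the GST values was not tested.

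**Figure D3:**
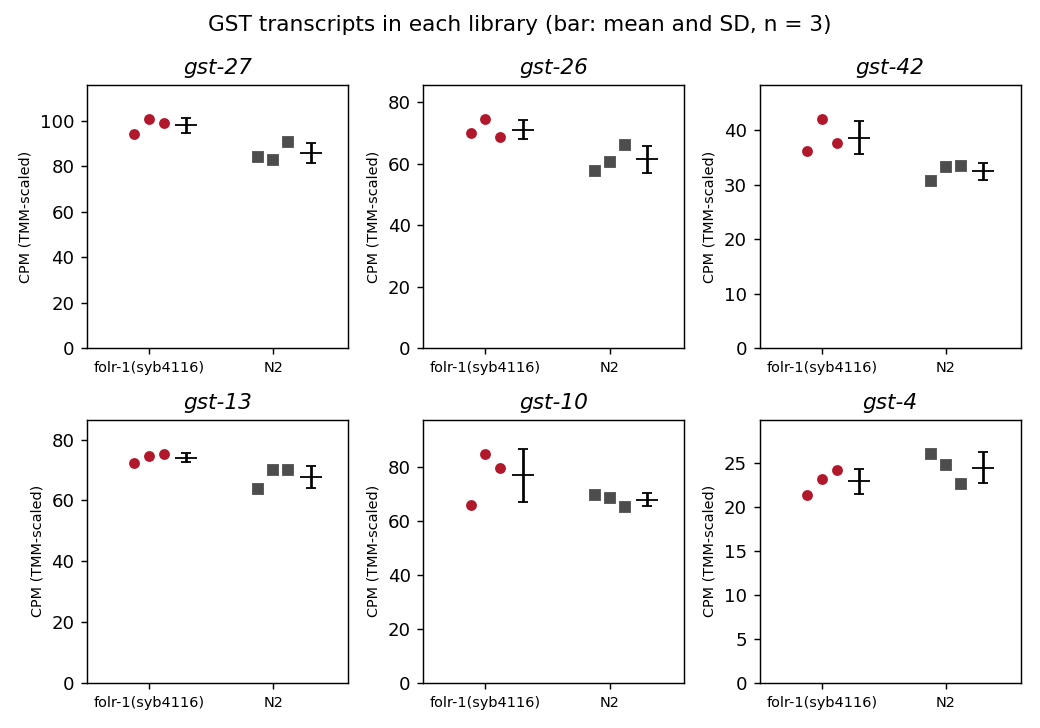
CPM of 6 GST genes in each library, with folr-1(syb4116) on the left and N2 on the right of each panel, and the mean with SD (n = 3) beside the points. The points of *gst-27*, *gst-26*, *gst-42* and *gst-13* do not overlap between the strains, while those of *gst-10* and *gst-4* do.

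Some other GST genes were separated between the strains without passing the test. The 3 *folr-1(syb4116)* libraries all lay above the 3 N2 libraries for 5 tested GST genes (14.3%, against 12.3% of all tested genes), which were the 3 called genes together with *gst-13* and *gst-35*. *gst-13* had 72.3, 74.6 and 75.2 CPM in *folr-1(syb4116)* and 63.6, 69.8 and 69.9 CPM in N2, with a log2 fold change of 0.13 (95% interval 0.03 to 0.23, adjusted p = 0.134). *gst-35*, singled out after its values were seen, had 104, 142 and 85 counts in *folr-1(syb4116)* and 74, 73 and 88 counts in N2, and a log2 fold change of 0.46 (95% interval 0.09 to 0.82, adjusted p = 0.136). Its separation was thus one of CPM and not of counts. The same held for *gst-13* and the 3 called genes, whose raw counts also overlapped between the strains. All mutant libraries lay below N2 for *gst-39* and *gst-2* (5.71%, against 12.9% of all tested genes), with adjusted p of 0.630 and 0.521.

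The most negative fold changes belonged to *gst-2*, *gst-41* and *gst-20*. *gst-2* had 12, 10 and 9 counts in *folr-1(syb4116)* and 11, 13 and 18 counts in N2, which gave a log2 fold change of -0.47 with an interval from -1.24 to 0.30. *gst-41* was close to the detection limit too, with 12, 4 and 10 counts in *folr-1(syb4116)* and 9, 12 and 12 counts in N2 (log2 fold change -0.37, adjusted p = 0.700). *gst-20*, a gene with more counts, gave -0.11 (95% interval -0.28 to 0.06, adjusted p = 0.505). None of these was distinguishable from the spread between replicates.

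Regarding the genes of known role, *gst-4* had 21.5, 23.2 and 24.2 CPM in *folr-1(syb4116)* and 26.1, 24.9 and 22.6 CPM in N2. The strains overlapped, and the log2 fold change was -0.09 (95% interval -0.25 to 0.06, adjusted p = 0.525), so an increase of more than 4.38% lay outside the interval. Exons of *gst-4* share 65 bases with *dhs-12* on the same strand, and *dhs-12* had a log2 fold change of 0.03 (adjusted p = 0.811). *gst-1* had 198, 192 and 201 CPM in *folr-1(syb4116)* and 212, 187 and 195 CPM in N2, a log2 fold change of -0.01 (95% interval -0.10 to 0.09). For *gst-7* the log2 fold change was 0.03 (95% interval -0.08 to 0.14).

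GST-5 and GST-10 conjugate hydroxynonenal, a product of lipid peroxidation, and overexpression of *gst-10* lengthens worm lifespan. *gst-10* had 66.1, 85.0 and 79.9 CPM in *folr-1(syb4116)* and 69.9, 68.7 and 65.4 CPM in N2. *folr-1(syb4116)* replicate 1 lay within the N2 range and the other two replicates above it. The log2 fold change was 0.18 (95% interval 0.03 to 0.33, adjusted p = 0.149). Without *folr-1(syb4116)* replicate 1 it was 0.28 and passed the test (edgeR adjusted p = 0.00427), and it also passed with no filter on low counts (adjusted p = 0.00525). Without *folr-1(syb4116)* replicate 2 it was 0.10 (adjusted p = 0.495), and it was called in 2 of 17 alternative fits in all. *gst-5* gave 0.01 (95% interval -0.11 to 0.12), and it shares 12 exonic bases with *nos-1* on the other strand, which was higher in the mutant (log2 fold change 0.32, adjusted p = 0.0438).

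The omega class was represented by *gsto-1* and *gsto-3* among the tested genes. *gsto-1*, an intestinal gene that protects worms from oxidative stress, had 18.3, 18.7 and 20.4 CPM in *folr-1(syb4116)* and 15.3, 18.6 and 16.8 CPM in N2, a log2 fold change of 0.18 (95% interval 0.00 to 0.36, adjusted p = 0.245). Its lowest mutant library fell below the highest N2 library. *gsto-3* gave -0.05 (95% interval -0.21 to 0.10). *gsto-2* was not tested, with 7, 2 and 5 counts in *folr-1(syb4116)* and 3, 8 and 3 counts in N2. The zeta class paralogue of *gst-42*, *gst-43*, had a log2 fold change of 0.15 (95% interval -0.11 to 0.41), and the difference between *gst-42* and *gst-43* was not tested. *gst-24* gave -0.10 (95% interval -0.47 to 0.26). *gst-36*, which lies 56.3 kb from *folr-1* on chromosome X, gave 0.01 (95% interval -0.10 to 0.11), while *scav-5*, which overlaps 93 of its exonic bases on the other strand, was higher (0.30, adjusted p = 0.0269).

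Exons of 11 GST genes overlapped with another gene, 8 of them tested, and none of the 3 called genes was among them. Whether counting used strand is not given in the sources used here, and the labels describe both directional and non-directional libraries. Reads from such overlaps cannot be assigned to one gene with certainty. *gst-17* and *gst-18* share 351 exonic bases on the same strand, and neither was tested.

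The 12 untested GST genes had at most 12 counts in any library. Together they had 53, 40 and 41 counts in *folr-1(syb4116)* and 29, 37 and 51 counts in N2, which overlapped. They included *gst-8*, *gst-14*, *gst-17*, *gst-18*, *gst-19*, *gst-25*, *gst-30*, *gst-31*, *gst-32* and *gsto-2*. *gst-34* and *gst-37* had the lowest levels, 0.00987 and 0.0104 FPKM, with a single count each in all 6 libraries together. No fold change is given for these genes.

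Secondly, the position of the GST genes in the genome was examined. Chromosome II held 25 of the 47 genes, chromosome V 9, chromosomes III and IV 4 each, chromosome X 3 and chromosome I 2. When GST genes within 20 kb of each other were joined, 25 genes fell into 4 clusters. Levels within a cluster differed widely. The cluster of *gst-26* to *gst-35* (chromosome II, 15163817 to 15185389) held 9 genes, all on the minus strand, from *gst-34* at 0.00987 FPKM to *gst-27* at 124 FPKM.

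That cluster contained both *gst-26* and *gst-27*, while its other tested members did not pass the test. *gst-31*, *gst-32* and *gst-34* were not tested. *gst-28*, the neighbour of *gst-27*, had a log2 fold change of -0.10 (95% interval -0.25 to 0.06) and *gst-39* one of -0.08. Of its 6 tested genes 4 were above 0 and 2 below. The summed CPM of the cluster was 207, 218 and 212 in *folr-1(syb4116)* and 186, 187 and 200 in N2 (log2 ratio 0.15).

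The other clusters had 0 called genes with edgeR. The *gst-6* to *gst-9* cluster (chromosome II, 4879891 to 4893573, all on the plus strand) had a log2 ratio of summed CPM of 0.02, and the *gst-20* to *gst-18* cluster (chromosome II, 13608154 to 13630887, 9 genes on the minus strand) one of -0.07. The *gst-3*, *gst-2* and *gst-4* cluster on chromosome IV (10139380 to 10143099) had -0.09. The intron of *gst-9* contains the sperm gene *msp-33* on the other strand, which had a log2 fold change of -0.01, and no exon was shared.

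**Figure D4:**
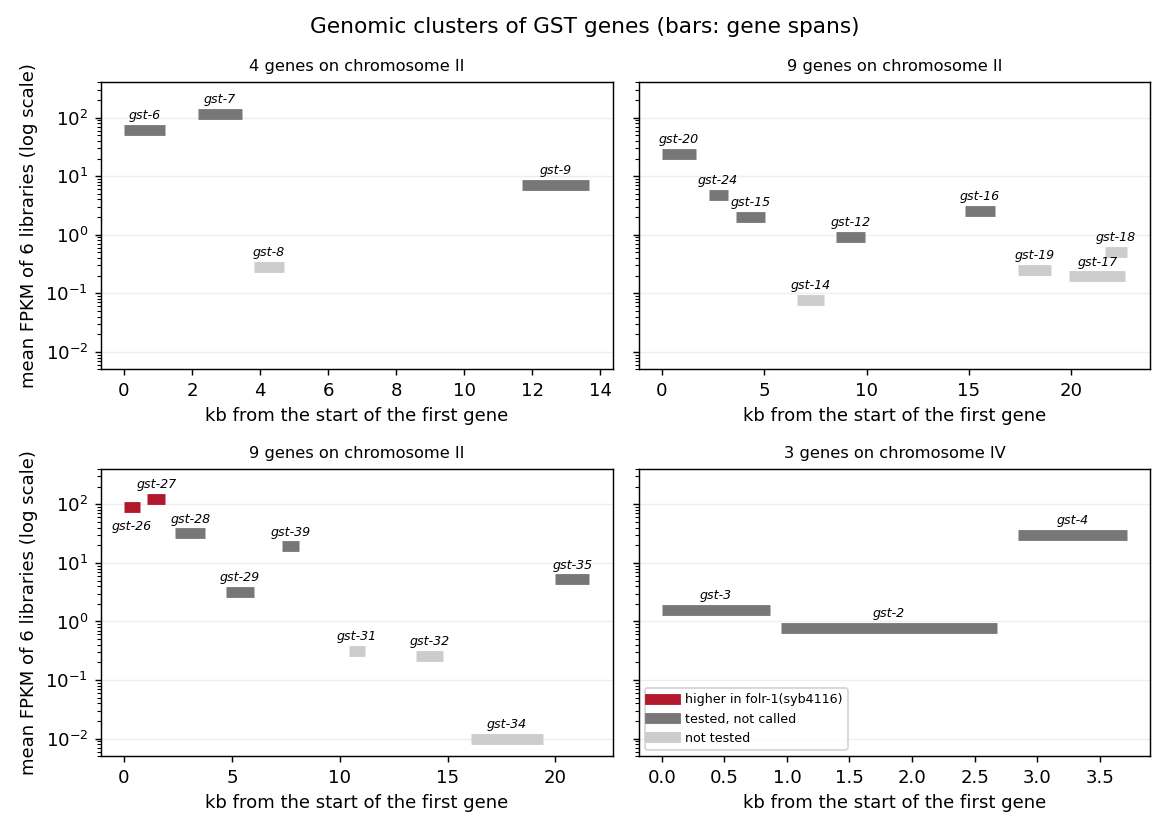
The 4 clusters of GST genes, with each gene drawn as a bar over its span in kb from the start of the first gene and at its mean FPKM over 6 libraries (log axis). Red bars mark *gst-26* and *gst-27*, dark bars tested genes that were not called and light bars untested genes, and within a cluster the levels reach from 0.00987 to 124 FPKM.

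Summed over all 47 genes, GST transcripts amounted to 947, 981 and 994 CPM in *folr-1(syb4116)* and 934, 920 and 932 CPM in N2. The mean was 974 ± 24.4 CPM in *folr-1(syb4116)* and 929 ± 7.58 CPM in N2 (SD, n = 3 each), a log2 ratio of 0.07 with no test. The strains did not overlap on this scale, but as a share of all counts they did, with 0.0934%, 0.0970% and 0.0988% in *folr-1(syb4116)* and 0.0939%, 0.0928% and 0.0945% in N2. Without the 3 called genes the mean sum was 766 ± 21.3 CPM in *folr-1(syb4116)* and 749 ± 10.8 CPM in N2.

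Finally, genes that make, recycle or use glutathione and genes of neighbouring pathways were compared. In the 9 lists, 62 of 65 genes were tested, 6 were higher and 1 was lower, beside 3.64% higher and 3.32% lower among all tested genes, and *gst-42* is counted here as well as among the GST genes. Of the 10 genes of glutathione synthesis and reduction none passed the test in edgeR, in either direction. These include *gcs-1*, the glutamate-cysteine ligase that limits glutathione synthesis and a known SKN-1 target, with 105, 112 and 108 CPM in *folr-1(syb4116)* and 106, 110 and 107 CPM in N2 (log2 fold change 0.00, 95% interval -0.08 to 0.09). Glutathione synthetase *gss-1* gave 0.03 and glutathione reductase *gsr-1* 0.01. The 9 SKN-1 regulators contained 0 called genes, with a median log2 fold change of 0.01, and *skn-1* itself gave 0.02 (95% interval -0.07 to 0.11).

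The 7 tested glutathione peroxidases, the 4 genes of NADPH supply and both kappa class transferases had 0 called genes as well. The kappa class gene *gstk-1* gave 0.26 (log2 fold change, adjusted p = 0.0932) and *gstk-2* gave -0.11. In the thioredoxin and peroxiredoxin list 2 of 8 tested genes were higher. *trx-3*, an intestinal thioredoxin, had 52.7, 55.6 and 58.2 CPM in *folr-1(syb4116)* and 45.1, 48.0 and 48.1 CPM in N2 (log2 fold change 0.24, adjusted p = 0.00903), and it lost its call only without *folr-1(syb4116)* replicate 3 (adjusted p = 0.0564). *trxr-2*, the mitochondrial thioredoxin reductase, had 16.3, 15.7 and 13.9 CPM in *folr-1(syb4116)* and 11.6, 13.2 and 11.7 CPM in N2 (0.33, adjusted p = 0.0360), a call that 4 of the 6 fits with a library left out did not keep.

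Of the superoxide dismutases and catalases, 1 of 8 was higher. This was the peroxisomal catalase *ctl-2*, with 69.0, 68.0 and 69.0 CPM in *folr-1(syb4116)* and 63.97, 61.0 and 59.7 CPM in N2 (log2 fold change 0.16, adjusted p = 0.0400). MRP-type exporters are ABC transporters of the class that carries glutathione conjugates out of cells. The list held 9 genes, *mrp-1* to *mrp-8* of this type and *hmt-1*, which is not an *mrp* gene. Among them *mrp-7* was lower, with 91.5, 92.9 and 95.2 CPM in *folr-1(syb4116)* and 105, 101 and 103 CPM in N2 (-0.14, adjusted p = 0.0384). The strains did not overlap in either gene. Both calls depended on the settings. *ctl-2* kept its call in 5 and *mrp-7* in 4 of 17 alternative fits, with adjusted p up to 0.133 and 0.340.

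Among these 9 lists, the one with the most called genes was tyrosine breakdown, the pathway of GST-42. All 5 genes of the list were above 0, and 3 of them were higher, namely *gst-42*, *hpd-1* and *tatn-1*. Among all tested genes 50.7% were above 0 and 3.64% were higher. Since *gst-42* is itself a GST gene and the list was made with earlier results known, its count is not independent of the GST result. The median log2 fold change was 0.13, beside 0.00 for all tested genes. Such values were not particular to this list. The epidermis markers also had 3 higher genes, with a median of 0.21, 5 above 0 and 2 below. The intestine markers had a median of 0.10, with 9 above 0 and 1 below. *hpd-1*, hydroxyphenylpyruvate dioxygenase, had 171, 181 and 182 CPM in *folr-1(syb4116)* and 154, 157 and 158 CPM in N2, without overlap (log2 fold change 0.19, 95% interval 0.11 to 0.27, adjusted p = 0.00564), and passed the test in all 17 alternative fits. *tatn-1*, the tyrosine aminotransferase of the first step, had 156, 152 and 152 CPM in *folr-1(syb4116)* and 142, 141 and 139 CPM in N2 (0.13, adjusted p = 0.0496). It was also without overlap, but kept its call in only 2 of 17 alternative fits, with adjusted p up to 0.140. *hgo-1*, the homogentisate oxidase before GST-42, gave 0.09 (adjusted p = 0.384), and *fah-1*, the fumarylacetoacetase after it, gave 0.01 (adjusted p = 0.892).

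**Figure D5:**
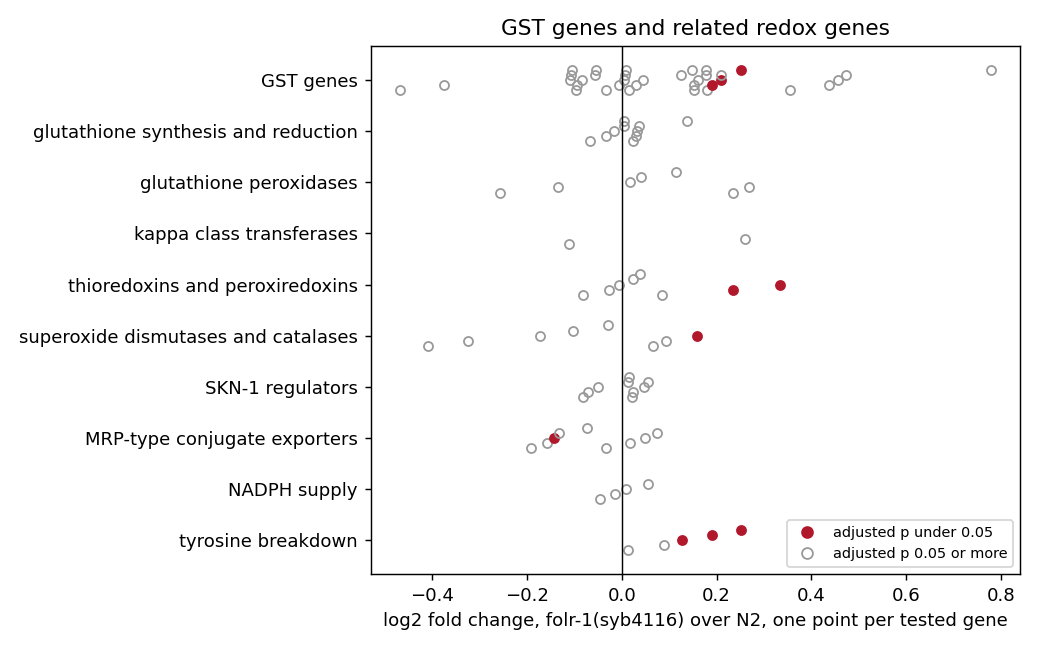
Log2 fold change, folr-1(syb4116) over N2, of each tested GST gene and of each tested gene in 9 lists of redox and related genes, with filled points for an adjusted p below 0.05 (edgeR). Called genes are few in most lists, and *gst-42*, *hpd-1* and *tatn-1* in the tyrosine breakdown list lie at 0.25, 0.19 and 0.13.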

How the data were processed

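RNA from whole L4 larvae of *folr-1(syb4116)* and N2 (3 replicates each) was sequenced. According to the submitters' processing notes the authors used fastp, HISAT2, featureCounts and the WBcel235 build. They deposited raw counts per gene, and FPKM values made from these with gene length. Symbols and positions came from the WBcel235 annotation, with 45624 of 46661 genes matched.

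Strains were compared with edgeR 4.0.16 in R 4.3.3 (filterByExpr, TMM, glmQLFit, glmQLFTest, with no covariate). Benjamini-Hochberg adjustment ran over 15432 genes and calls needed an adjusted p below 0.05. Alternatives used DESeq2 1.42.0, limma 3.58.1, other filters, a length correction, a replicate block and left-out libraries. The procedure was tested on simulated data. Named were called genes, the 5 with the highest FPKM, in each direction the 3 largest changes among called genes (among tested genes where none was called), genes of known role and called genes of the lists. Members and lists were chosen with earlier results of these data known. Totals of 21646678 to 25946226 counts per library limit the precision for genes of low level. Protein identity and promoter motifs were not analysed here.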

Additional observations from a re-analysis of the deposited data

How the results depend on the processing

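With both DESeq2 fits, limma-voom, relative log expression factors or a minimum of 10 counts, 3 GST genes were higher and 0 lower. In their deviations from the strain mean, same-numbered libraries correlated at -0.0457 to 0.0122 and those of different number at -0.0172 to 0.0403. These values gave no sign of pairing by replicate number, but with 3 libraries per strain they cannot exclude it. With the replicate block edgeR called 3 GST genes higher, and 459 higher and 406 lower over all genes. With no filter it called 4 GST genes and, over all genes, 894 higher and 752 lower. On log2(FPKM + 1) limma called 0 GST genes, and 310 genes higher and 268 lower in all, and on log2(FPKM + 0.1) it called 0, 309 and 274. A length correction with the replicate block left 1 GST gene (*gst-42*). With adjusted p below 0.005 and a log2 fold change over 1, 0 GST genes were called, and 4 higher and 138 lower in all. With a library left out, 0 to 3 GST genes were higher, and 335 to 529 higher and 337 to 470 lower in all. The cause of these differences was not tested. The log2 ratio of summed GST CPM was 0.041 with plain library totals and 0.054 to 0.089 with a library left out. Signs changed only in genes that were not called. Under length correction, without and with the block, *gst-5* had -0.012 in both and *gst-36* -0.017 and -0.015. With a library left out, *gst-1* ranged from -0.046 to 0.047, *gst-7* from -0.023 to 0.060, *gst-5* from -0.040 to 0.061, *gst-24* from -0.21 to 0.0099 and *gst-36* from -0.028 to 0.037.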
